A study of Homo sapiens with 27 samples.

Results

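UMSCC25 cells treated with gefitinib were compared with UMSCC25 cells treated with DMSO in a pooled screen with a kinome shRNA library. UMSCC25 is a line derived from a head and neck squamous cell carcinoma (HNSCC). The comparison covers every shRNA with at least 10 counts summed over the 6 plates, 3 with DMSO as the vehicle and 3 with gefitinib, which left 3070 of the 3177 shRNAs of the deposited table and set aside the other 107. All plates, those with DMSO included, held cells that had been transduced with the lentiviral MISSION TRC1 library and selected with puromycin. The cells were exposed to the agent for 72 hours, recovered without it for 72 hours and were harvested at 144 hours. One field of the sample labels gives a gefitinib dose of 300 nM and another gives 1000 nM. The methods of the study give the lower dose. The series holds 27 libraries in 9 groups of 3, with AZD8931, an inhibitor of several ErbB receptors, as the other agent and UMSCC8 and UMSCC1 as the other lines.

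Gefitinib binds the ATP site of the epidermal growth factor receptor (EGFR), a receptor tyrosine kinase that drives proliferation in squamous epithelium and is often overexpressed in HNSCC. In a pooled screen each cell carries an integrated shRNA cassette that lowers the mRNA of 1 gene, and the cassette is amplified from genomic DNA and counted, so that it serves as a tag of the cells that carry it. When cells with a given shRNA divide less in the drug than the other cells of the plate, the share of their tag is lower than with DMSO, and a gene behaving in this way is called synthetic lethal with the drug. When such cells divide more, the share of their tag is higher. The table names each shRNA by its clone identifier, TRCN and a number. Neither gene names nor hairpin sequences are paired with the identifiers in the files used here, except that the study assigns 6 of them to the TGF-β receptors TGFBR1 and TGFBR2. The accounts below are therefore of clones, and what most of them silence was not analysed here.

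The 3 DMSO libraries held between 460550 and 468148 counts and the 3 gefitinib libraries between 397653 and 484948. The median tested shRNA had 74 to 75 counts in a DMSO library and 55 to 66 in a gefitinib library. CPM (counts per 1e6) is the unit of abundance below, relative to a library total scaled by the trimmed mean of M values (TMM). Where an shRNA had no count, up to 3 counts remain possible, 6.19 to 6.26 CPM on a DMSO plate and 6.63 to 7.69 CPM on a gefitinib plate. These limits cover counting error only, since PCR copies carried no molecular tag. Per the study's methods, cells of the line were transduced, selected and then divided into the treated plates, so the p-values measure the spread between plates of 1 transduced line, which may be technical.

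No shRNA was lower (0%) and none was higher (0%) with gefitinib at an adjusted p under 0.05 by edgeR's quasi-likelihood test, and the smallest adjusted p was 0.235. Without adjustment, p was under 0.05 for 83 lower (2.70% of those tested) and 150 higher shRNAs (4.89%). If no shRNA differed, a share of about 0.05 would be expected at this threshold over both directions together. The share of lower shRNAs is near its part of that. The 83 lower shRNAs had a median log2 fold change of -1.32, and 62 of them were at least 2-fold lower. The 150 higher shRNAs had a smaller median log2 fold change of 0.98, and 69 of them were at least 2-fold higher. The lower shRNAs were scarcer, with a median of 112 CPM over the 6 plates, against 328 CPM for the higher shRNAs and 160 CPM for all shRNAs. The median standard error was 1.44 for shRNAs under 20 CPM and 0.28 for those of 500 CPM and over. A scarcer shRNA thus needed a larger fold change to pass, and the contrast in size follows in part from this cut. DESeq2, run on the same libraries, called 1 shRNA lower (0.0326% of the 3070) and 9 higher (0.293%) at an adjusted p under 0.05. Its filter on abundance left some of the 3070 shRNAs without an adjusted p. Of the shRNAs named below by smallest p and plates that did not overlap, 3 of the 8 lower and 7 of the 8 higher had one. Among these named shRNAs the DESeq2 calls therefore covered fewer of the lower ones. The edgeR exact test and limma-voom called 0 in either direction, with 99 and 107 shRNAs lower and 148 and 145 higher at an unadjusted p under 0.05.

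The plates of the 2 groups were also compared shRNA by shRNA without a model. All 3 gefitinib plates lay below all 3 DMSO plates for 215 shRNAs (7.0%), and all 3 lay above for 232 (7.56%). Plates of 3 against 3 also separate for some shRNAs with no effect, and these shares were not tested against that. Of the 83 lower shRNAs, 70 had plates that did not overlap, as had 114 of the 150 higher ones. Both lists were picked by p on the same plates, so these numbers follow in part from the choice and are no separate evidence. The direction of the split over all shRNAs depended on the scaling. With total counts in place of TMM, the median log2 fold change of all shRNAs moved to -0.10, 297 shRNAs had all gefitinib plates below and 160 had them above, and the calls at an unadjusted p under 0.05 turned to 130 lower and 106 higher. Irrespective of plates and p, 204 shRNAs (6.64%) had a log2 fold change of -1 or less and 147 (4.79%) had one of 1 or more.

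The direction and the size of the differences varied with the abundance of the shRNA. Among the 207 shRNAs with a mean under 20 CPM over the 6 plates, the median log2 fold change was -0.32, and 66 were at least 2-fold lower and 34 at least 2-fold higher. At an unadjusted p under 0.05, 8 of these 207 were lower and 0 were higher by edgeR, and the standard error was large, with a median of 1.44. Among the 898 shRNAs of 20 to 100 CPM, the median log2 fold change was -0.16, with 30 lower and 24 higher at an unadjusted p under 0.05. The 1536 shRNAs of 100 to 500 CPM were centred near 0, at a median of 0.02, with 38 lower and 79 higher. The 429 shRNAs of 500 CPM and over had a median of 0.14, with 7 lower and 47 higher. In this most abundant class 14.5% of the shRNAs had all gefitinib plates above all DMSO plates and 4.20% had all below, whereas in the class of 20 to 100 CPM the shares were 5.23% and 9.69%. Clones of 500 CPM and over took 57.8% to 60.3% of the counts on the gefitinib plates and 56.5% to 57.6% on the DMSO plates. The same classes, set by abundance in UMSCC25, were also used for gefitinib in the other lines. The median log2 fold change in UMSCC8 was 0.19 in the lowest class and 0.03 in the highest. In UMSCC1 it was 0.06 and -0.08. Over these classes neither line showed the same order. Clones can differ in abundance between lines, so these medians do not show whether the differences followed abundance within UMSCC8 or UMSCC1.

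The lower shRNA with the smallest p was TRCN0000003243. It had 94, 106 and 167 counts on the DMSO plates and 29, 12 and 35 on the gefitinib plates. The groups did not overlap, which the choice of the named clones required. Its abundance was 254 ± 80.7 CPM with DMSO and 59.9 ± 25.4 CPM with gefitinib (SD, n = 3 plates). This was 4.20-fold lower. The log2 fold change, -2.07 with a standard error of 0.52, was the lowest of any shRNA of 100 CPM or more, and its adjusted p was 0.382. It stayed between -2.29 and -1.76 when any one of the 6 plates was left out.

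TRCN0000000575 was the only shRNA that DESeq2 called lower (adjusted p = 0.0386). By DESeq2, TRCN0000003243 had a smaller unadjusted p (8.76e-05 against 0.000220), but the filter on abundance left it without an adjusted p. The counts of TRCN0000000575 were 229, 191 and 106 with DMSO and 52, 52 and 61 with gefitinib. The gefitinib plates agreed closely, at 132 ± 3.35 CPM, whereas the DMSO plates spread over 364 ± 130 CPM (SD, n = 3 plates). The log2 fold change of -1.46 had a standard error of 0.38, and the quasi-likelihood test gave an adjusted p of 0.391.

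A pair of abundant shRNAs was lower by about the same factor. TRCN0000001495 had 634, 640 and 651 counts with DMSO, and 212, 381 and 229 with gefitinib. Here the DMSO plates agreed within 19.4 CPM (SD, n = 3 plates) around a mean of 1330 CPM, and the mean with gefitinib was 669 CPM, 1.99-fold lower. TRCN0000007065 had 279, 260 and 376 counts with DMSO and 134, 132 and 134 with gefitinib, and it was 1.96-fold lower. In the latter the gefitinib plates were the closer ones. Their adjusted p was 0.439 for both.

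The other 4 lower shRNAs that were named by plates that did not overlap and the smallest p had between 98.2 and 204 CPM. TRCN0000006052 had 71, 51 and 92 counts with DMSO and 17, 12 and 33 with gefitinib, a log2 fold change of -1.59 (standard error 0.50). TRCN0000002523 had 124, 146 and 145 counts with DMSO and 39, 74 and 34 with gefitinib, a log2 fold change of -1.25 (standard error 0.39). TRCN0000001725 had 69, 64 and 94 counts with DMSO and 19, 28 and 31 with gefitinib, a log2 fold change of -1.32 (standard error 0.44). In these 3 shRNAs, as in the next, each gefitinib plate was below the lowest DMSO plate, as their choice required. TRCN0000001003 had 116, 139 and 123 counts with DMSO and 76, 11 and 22 with gefitinib, so that gefitinib plate 1 lay nearer to the DMSO plates than plates 2 and 3. Its log2 fold change was -1.57 (standard error 0.52), and it was -2.75 without gefitinib plate 1 and -1.15 without gefitinib plate 2. TRCN0000033473, second lowest among shRNAs of 100 CPM or more at -1.74, also had most counts on gefitinib plate 1, with 51, 5 and 10 counts with gefitinib against 149, 69 and 41 with DMSO, and here the groups overlapped. Its log2 fold change was -3.33 without gefitinib plate 1 and -1.09 without DMSO plate 1.

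Among the higher shRNAs, TRCN0000000374 had the smallest p of all 3070 shRNAs. It was also one of the most abundant clones, with 2835, 2916 and 3076 counts on the DMSO plates and 4571, 4560 and 6818 on the gefitinib plates. The abundance was 6101 ± 256 CPM with DMSO and 12689 ± 2079 CPM with gefitinib (SD, n = 3 plates), 2.08-fold higher. Its log2 fold change was 1.06 (standard error 0.21), with an adjusted p of 0.235 by the quasi-likelihood test, 0.0786 by the edgeR exact test and 0.000960 by DESeq2, and it lay between 0.93 and 1.13 when any plate was left out.

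TRCN0000040023 followed, with 521, 320 and 337 counts with DMSO and 592, 927 and 815 with gefitinib. It was 2.31-fold higher (log2 fold change 1.21, standard error 0.26), with an adjusted p of 0.239 by the quasi-likelihood test and 0.00430 by DESeq2. All 3 gefitinib plates lay above the DMSO plates, as the choice of this clone required. TRCN0000000483 was the highest of all shRNAs of 100 CPM or more, with 19, 24 and 26 counts with DMSO and 94, 42 and 74 with gefitinib. This was 3.51-fold higher (log2 fold change 1.81, standard error 0.44), with an adjusted p of 0.382, and DESeq2 gave it no adjusted p because its filter on abundance set it aside.

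Another 5 higher shRNAs had between 399 and 1057 CPM over the 6 plates and were 2.09-fold to 2.45-fold higher. TRCN0000007044 had 173, 114 and 132 counts with DMSO and 262, 203 and 388 with gefitinib (log2 fold change 1.22). TRCN0000002404 had 182, 225 and 171 with DMSO and 288, 335 and 424 with gefitinib (1.06), and TRCN0000039879 had 85, 90 and 160 with DMSO and 188, 285 and 229 with gefitinib (1.29). The gefitinib plates agreed best for TRCN0000001744, at 609 ± 2.93 CPM against 279 ± 71.8 CPM with DMSO (SD, n = 3 plates), from 247, 236 and 276 counts with gefitinib and 122, 173 and 109 with DMSO. TRCN0000001565 had 303, 370 and 314 counts with DMSO and 499, 509 and 793 with gefitinib (1.07). All 5 were called by DESeq2, with adjusted p from 0.0208 to 0.0499, and none by the quasi-likelihood test. DESeq2 also called TRCN0000000744 (140, 108 and 165 counts with DMSO and 245, 185 and 321 with gefitinib) and TRCN0000000600, which had 748, 813 and 809 with DMSO and 936, 1085 and 1488 with gefitinib and was 1.71-fold higher. For each of the 9 shRNAs that DESeq2 called higher, all gefitinib plates lay above all DMSO plates. The calls rest on these same plates, and most of the 9 were named for plates that did not overlap. The agreement is therefore no separate evidence.

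Further shRNAs with large differences were scarcer. TRCN0000006288 had 26, 44 and 39 counts with DMSO and 123, 74 and 120 with gefitinib, 3.35-fold higher. TRCN0000006317 had 19, 49 and 19 with DMSO and 58, 98 and 78 with gefitinib, 3.13-fold higher, and TRCN0000001376 had 20, 28 and 28 with DMSO and 51, 65 and 85 with gefitinib, 3.04-fold higher. In each of the 3 the gefitinib plates were all above the DMSO plates, and the adjusted p was 0.439.

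Complete loss of a clone from a group was rare. Of the 3070 shRNAs, 2857 were counted on all 6 plates. On the gefitinib plates 128 shRNAs were at 0 on 1 plate, 37 on 2 plates and 3 on all 3 plates, and on the DMSO plates the numbers were 78, 27 and 2. Plate by plate, 59, 105 and 47 shRNAs were at 0 with gefitinib and 36, 38 and 64 with DMSO. Gefitinib plate 2, with the most at 0, also had the smallest total of the 6 libraries (397653 counts). Gefitinib plates 1 and 3 each had fewer at 0 than DMSO plate 3. The 3 shRNAs at 0 on all gefitinib plates were all scarce with DMSO. TRCN0000007067 had 3, 4 and 12 counts with DMSO, and it was at least 5.46-fold lower with gefitinib, taking 3 counts over the group as the limit. Each such limit takes the total of the other group as exact and leaves out the spread between plates. TRCN0000039774, which the study assigns to TGFBR1, had 3, 0 and 17 counts with DMSO and was at least 5.74-fold lower. TRCN0000002187 had 0, 1 and 14 counts and was at least 4.31-fold lower. In each of the 3, DMSO plate 3 held most of the counts, and the adjusted p lay between 0.534 and 0.706. The standard errors of their log2 fold changes were 2.41, 2.13 and 2.72, in the order given.

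In the opposite direction, TRCN0000037881 was at 0 on all DMSO plates and had 23, 4 and 31 counts on the gefitinib plates, at least 22.4-fold higher (adjusted p = 0.439). The mean abundance of this shRNA in the DMSO plates of the other lines was 9.83 CPM in UMSCC8 and 34.7 CPM in UMSCC1. TRCN0000000861 was also at 0 on the DMSO plates, but its 11 counts with gefitinib came from plate 3 alone. It was at least 4.26-fold higher by the limit over the group, which leaves out the spread between plates. Its log2 fold change had a standard error of 2.67.

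The 4 most abundant clones had log2 fold changes between -0.40 and 0.41. TRCN0000121186, the most abundant of all, had 22939, 24977 and 28900 counts with DMSO and 31802, 19062 and 38173 with gefitinib, 4.79% to 7.87% of a library, with a log2 fold change of 0.41 (standard error 0.21). Gefitinib plates 1 and 3 were above all DMSO plates in CPM, and plate 2 lay within their range. TRCN0000000366 had a log2 fold change of 0.06 (standard error 0.20), and TRCN0000121185 one of 0.34 (standard error 0.23), both with overlapping plates. TRCN0000000370 had 13713, 15123 and 13710 counts with DMSO and 10542, 9463 and 7407 with gefitinib, and all its gefitinib plates were below the DMSO plates at a log2 fold change of -0.40 (standard error 0.21). The adjusted p of these 4 clones lay between 0.701 and 0.971.

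The gefitinib plates differed more among themselves than the DMSO plates did. The reduced chi-square of the counts of a pair of plates, which is near 1 when only sampling sets them apart, was 6.65 to 7.86 for the 3 pairs of DMSO plates and 14.8 to 22.0 for the 3 pairs of gefitinib plates. For the 9 pairs of a DMSO and a gefitinib plate it was 11.6 to 19.2, no more than among the gefitinib plates. The Spearman correlation across shRNAs was 0.913 to 0.925 among DMSO plates, 0.848 to 0.859 among gefitinib plates and 0.858 to 0.892 between the groups (shRNAs are not independent replicates). The coefficient of variation between plates was larger with gefitinib for 2141 of the 3070 shRNAs (69.7%), with a median of 38.9% against 25.2% with DMSO. Among the 429 clones of 500 CPM and over the medians were 27% and 11.9%, and 82.8% of these clones were more variable with gefitinib, the highest share of the 4 abundance classes.

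A set of clones moved together between plates. Of the 1965 shRNAs with a mean of 100 CPM or more, 38 had over 66.7% of their gefitinib CPM on a single plate, against 2 for DMSO, and in 27 of the 38 that plate was gefitinib plate 1. TRCN0000006235, TRCN0000037688 and TRCN0000010117 were the most uneven. TRCN0000006235 had 164, 14 and 16 counts on the gefitinib plates and 132, 67 and 51 on the DMSO plates. TRCN0000037688 had 100, 6 and 14 with gefitinib and 101, 34 and 74 with DMSO. TRCN0000010117 had 120, 2 and 23 with gefitinib and 219, 89 and 148 with DMSO. In each of the 3, plate 1 was the highest in both groups.

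The 27 clones were chosen by the unevenness of their gefitinib plates and by their mean over the 6 plates, which includes the DMSO plates. The order of the DMSO plates among themselves and the libraries of AZD8931 and of the other lines were not used in the choice. DMSO plate 1 was the highest DMSO plate for 19 of the 27, as for 29.1% of all 1965 shRNAs, and AZD8931 plate 1 was the lowest of its group for 24 of the 27, as for 34.3% of all. Measured against the mean of the 9 libraries of a line and the median shRNA of each library, on the scale log2(CPM + 1), the 27 clones had a median of 0.86 on gefitinib plate 1, -2.15 on plate 2 and -1.36 on plate 3. On the AZD8931 plates of UMSCC25 it was 0.23, 1.18 and 1.14. In UMSCC8 the 27 clones stood lowest on DMSO plate 2, with a median of -1.96 and 1 of 27 above the mean, and highest on DMSO plate 3, at 0.73. In UMSCC1 they stood lowest on AZD8931 plate 1, at -3.78, and highest on DMSO plate 3, at 1.82, with 27 of 27 above the mean. In UMSCC1 the medians were 1.70, 1.52 and 0.51 on the gefitinib plates and -3.78, -0.42 and -1.28 on the AZD8931 plates, so that they also differed between agents. On the DMSO plates of UMSCC25 they were closer, at 0.27, -0.29 and -0.14. The set therefore varied between plates of the same agent in all 3 lines, and widely between DMSO plates in UMSCC8 and UMSCC1. Whether the agents had a part in this was not tested.

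Over the 18 libraries of UMSCC8 and UMSCC1, the deviation of each of the 27 clones was correlated with the median of the others, with a median Pearson r of 0.90, and r exceeded 0.7 for 25 of them. It exceeded 0.7 for 179 of all 1965 shRNAs (9.11%). Without the 2 libraries where the set stood farthest out, r exceeded 0.7 for 21 of the 27 and for 62 of the 1965 (3.16%), over 16 libraries. These points share the libraries, and no base composition could be set beside them because the hairpin sequences were not read here. Of the lower shRNAs named above, TRCN0000001003 and TRCN0000033473 belong to the 27, and their r in the other lines was 0.89 and 0.93. TRCN0000001003 is also 1 of the 16 clones named by smallest p among those whose plates did not overlap, 8 in each direction. The other 15 of these 16 had an r between -0.74 and 0.50. It was lowest for TRCN0000000575 (-0.74), TRCN0000001565 (-0.72), TRCN0000040023 (-0.63) and TRCN0000007065 (-0.62), which tended to stand lower in the libraries where the 27 clones stood higher. It was -0.31 for TRCN0000003243, -0.16 for TRCN0000001495 and 0.07 for TRCN0000000374. Outside the 16, r was 0.68 for TRCN0000000744, which DESeq2 called higher, and 0.85 for the abundant TRCN0000121186.

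The number of lower shRNAs depended on gefitinib plate 1. Without it, 180 shRNAs were lower and 157 higher at an unadjusted p under 0.05, in place of 83 and 150, and 57 of the 83 and 117 of the 150 remained among them. Of the 95 lower shRNAs of 100 CPM or more in this fit, 38 had an r over 0.7 with the 27 clones (40.0%). Among the 135 higher ones it was 2. With all plates it was 4 of 45 lower shRNAs, and the share over all 1965 shRNAs was 9.11%. The 27 clones were chosen by a high gefitinib plate 1, and 25 of them had an r over 0.7. The rise to 38 without this plate therefore follows in part from the choice, and is no separate evidence. Leaving out DMSO plate 1 gave 53 lower shRNAs, and leaving out DMSO plate 3 gave 96 higher ones. The count at an adjusted p under 0.05 was 0 in each fit without 1 plate.

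Unevenness was also seen on single DMSO plates. TRCN0000002093 had 30, 115 and 7 counts with DMSO and 81, 75 and 114 with gefitinib, and DMSO plate 2 held 75.8% of the DMSO CPM. TRCN0000000746 had 204, 45 and 32 with DMSO and 46, 182 and 58 with gefitinib, with 72.5% on DMSO plate 1, and TRCN0000006208 had 26, 31 and 108 with DMSO and 42, 56 and 33 with gefitinib, with 65.4% on DMSO plate 3. The gefitinib plates of TRCN0000002093 were close to each other, at 215 ± 32.5 CPM (SD, n = 3 plates), whereas 1 gefitinib plate of TRCN0000000746 held 65.9% of its gefitinib CPM.

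Clones with neighbouring numbers shared the direction of the named ones in a share of cases that lay within 10 percentage points of that of all shRNAs. In TRC libraries, hairpins against the same gene often carry neighbouring numbers, as the 6 identifiers of the TGF-β receptors do, but a shared target is not established for any other clone here. The 8 named lower shRNAs had 52 tested clones within 4 numbers. Of these 29 (55.8%) had a log2 fold change below 0, against 50.2% of all shRNAs, and the median was -0.08. The 8 named higher shRNAs had 42 such clones, of which 18 (42.9%) were above 0, against 49.8% of all.

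The closest sets differed from each other. TRCN0000001725 was accompanied by TRCN0000001724, with 65, 88 and 59 counts with DMSO and 27, 12 and 34 with gefitinib, and by TRCN0000001727, with 396, 448 and 535 with DMSO and 290, 261 and 215 with gefitinib. These 3 clones were lower on all gefitinib plates, with log2 fold changes of -1.32, -1.34 and -0.62, and the standard error of the third was 0.28. The set also held a scarce clone of 5.08 CPM, TRCN0000001726, with a log2 fold change of 1.83 (standard error 1.49). TRCN0000000575 was accompanied by TRCN0000000578, with 10, 31 and 17 counts with DMSO and 2, 4 and 2 with gefitinib (log2 fold change -2.58, standard error 1.13), and 6 of its 7 neighbours were below 0.

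Other sets were split. TRCN0000007065 lay beside TRCN0000007067, lost from all gefitinib plates, and beside TRCN0000007069, which had 82, 133 and 97 counts with DMSO and 144, 172 and 234 with gefitinib, a log2 fold change of 1.02. TRCN0000006052 was lower while TRCN0000006054 was higher on 2 of 3 gefitinib plates in counts and on all 3 in CPM, with 373, 375 and 380 counts with DMSO and 372, 479 and 688 with gefitinib. TRCN0000000374 was 2.08-fold higher, whereas TRCN0000000371 had 9860, 8992 and 9922 counts with DMSO and 5812, 4692 and 7280 with gefitinib and was 1.40-fold lower, and TRCN0000000370 was 1.32-fold lower. All 3 are abundant clones with plates that did not overlap. TRCN0000007044 lay beside TRCN0000007046, which had 31, 79 and 38 counts with DMSO and 63, 71 and 127 with gefitinib, and both had positive log2 fold changes. Only 3 of the 8 neighbours of TRCN0000007044 were above 0, with a median of -0.26, and all gefitinib plates of TRCN0000007045 lay below its DMSO plates (log2 fold change -0.35, standard error 0.33).

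The 6 clones that the study assigns to TGF-β receptors were the only ones with a gene name. TGFBR1 encodes the type I receptor and TGFBR2 the type II receptor, the serine/threonine kinase that binds the ligand and activates the type I receptor. The study listed TRCN0000039774, TRCN0000039776, TRCN0000040008 and TRCN0000040011 for gefitinib in UMSCC25 from these 6 libraries. It listed TRCN0000039775 and TRCN0000039777 for AZD8931, against the same DMSO plates. The list is therefore not independent evidence of its direction. Among them 4 of 6 had a log2 fold change below 0, against 50.2% of all shRNAs, and these 4 were the ones listed for gefitinib. Without gefitinib plate 3, TRCN0000039776 (0.16) and TRCN0000040008 (0.07) were above 0 and TRCN0000039775 (-0.79) was below, so that 3 of 6 were below 0. With all plates 1 had an unadjusted p under 0.05, and with TMM scaling the plates overlapped for all 6. The adjusted p lay between 0.534 and 0.971. The study instead ranked genes by a p combined over the shRNAs of a gene, and it listed TGFBR2 clones in UMSCC8 as well. The adjusted p per shRNA given here is a different measure. TRCN0000040011 of TGFBR2 had 52, 54 and 73 counts with DMSO and 26, 44 and 16 with gefitinib, and its gefitinib plate 2 lay within the range of the DMSO plates in TMM-scaled CPM but below all of them with total counts.

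Gefitinib in the other lines was measured against separate DMSO plates. Of the 83 shRNAs lower in UMSCC25 at an unadjusted p under 0.05, 52 of 83 (62.7%) had a log2 fold change below 0 in UMSCC8, against 48.5% of all shRNAs, and 55 of the 81 tested in UMSCC1 (67.9%), against 49.0% of all. Their median log2 fold change was -0.28 in UMSCC8 and -0.31 in UMSCC1, against -1.32 in UMSCC25. Of the 150 higher shRNAs, 100 (66.7%) were above 0 in UMSCC8, against 51.5% of all shRNAs, with a median of 0.33. In UMSCC1 82 of 147 (55.8%) were above 0, against 51.0% of all, with a median of 0.09. The lists were picked on UMSCC25 and these shares carry no test. Whether libraries of different lines were amplified or sequenced together is not given in the sources used here, and its part in these shares was not tested.

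The named clones differed in how far they were repeated. TRCN0000000374 had a log2 fold change of 1.12 in UMSCC8 (standard error 0.22, adjusted p = 0.175) and 0.24 in UMSCC1 (standard error 0.35). TRCN0000001744 had 1.31 and 0.47, and TRCN0000039879 had 1.11 and 0.97, in the same order. TRCN0000001495 had -0.96 in UMSCC8 (standard error 0.29) and -0.23 in UMSCC1, and TRCN0000000575 had -0.84 and -0.57. In UMSCC8 the sign was opposite for TRCN0000000483 (-0.45), TRCN0000006052 (0.59), TRCN0000002523 (0.45) and TRCN0000001725 (0.90), and for the other 12 of the 16 it was the same. In UMSCC1 it was opposite for TRCN0000001003 (0.44), TRCN0000002523 (0.21), TRCN0000000483 (-0.21), TRCN0000007044 (-0.43) and TRCN0000040023 (-0.05), and the same for the other 11. In the test of the difference between lines, over 27 libraries, 0 shRNAs passed an adjusted p under 0.05 against UMSCC8 (smallest 0.880, 151 at an unadjusted p under 0.05) and 0 against UMSCC1 (smallest 0.105, 185 at an unadjusted p under 0.05) by edgeR, and limma-voom also gave 0 in both, with 207 and 184.

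AZD8931 in UMSCC25 was measured against the same DMSO plates, and by one field of the labels its dose differs from that of gefitinib (30 nM against 300 nM). Values for some of the named clones are given side by side without a comparison. Over the 8 named lower clones the log2 fold change with AZD8931 ran from -1.38 to -0.23. Its median was -0.58, and the median with gefitinib was -1.39. Over the 8 named higher clones it ran from 0.26 to 2.13, with a median of 0.90, and the median with gefitinib was 1.17. The log2 fold changes with gefitinib and with AZD8931 were -2.07 and -1.38 for TRCN0000003243, -1.46 and -1.26 for TRCN0000000575, and -0.99 and -1.31 for TRCN0000001495. They were 1.06 and 1.05 for TRCN0000000374, 1.81 and 2.13 for TRCN0000000483, and 1.29 and 0.26 for TRCN0000039879. TRCN0000033473, one of the 27 clones that varied together between plates, had -1.74 and 0.76.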

How the data were processed

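The authors deposited 1 table of raw counts per shRNA and library, without normalization. The submitters' processing notes name Bowtie 1.0.0, edgeR and hg19 without their roles, and BiNG!S is cited for the reads. Libraries were grouped by their titles.

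The counts of the 9 UMSCC25 libraries were fitted in 1 model in R 4.3.3 by the robust quasi-likelihood method of edgeR 4.0.16 (glmQLFit, glmQLFTest) with TMM scaling, without a replicate term, over shRNAs with at least 10 counts in the 6 libraries compared. P-values were adjusted across all 3070 shRNAs (Benjamini-Hochberg), with a threshold of 0.05. Standard errors were derived from the quasi-likelihood F. DESeq2 1.42.0, limma 3.58.1 (voom), the edgeR exact test, other scalings and filters, only 6 libraries, a replicate block and leaving out each library were alternatives. The fit was tested on simulated data. Total counts ranged from 397653 to 484948 in the 6 libraries compared, and from 357486 to 540576 in the AZD8931 libraries of the line. No pair of plates was closer than sampling allows.

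Clones were named by rule: with a mean of at least 20 CPM and plates that did not overlap, the 8 of smallest p in each direction; clones at 0 in a group; the 4 most abundant; with at least 100 CPM, the 4 lowest and 4 highest and the 3 most uneven in each group; calls of the main test, DESeq2 or the exact test; the 6 TGF-β receptor clones; and clones within 4 numbers. The members and lists were chosen with earlier results of these data known, and the 27 clones that varied together were found after their values were seen. Deviations between plates use log2(CPM + 1). Hairpin sequences were not used here.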

Additional observations from a re-analysis of the deposited data

How the results depend on the processing

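The number of shRNAs at an adjusted p under 0.05 stayed at 0 lower and 0 higher under RLE size factors, total counts, no filter beyond 1 count, filterByExpr, limma-voom, the edgeR exact test, only the 6 libraries compared, the replicate block and each fit without 1 plate. With DESeq2 it was 1 lower and 9 higher. At an unadjusted p under 0.05, total counts gave 130 lower shRNAs, and leaving out 1 plate gave 53 to 180 lower and 96 to 179 higher. The other alternatives kept these 2 counts within 1.5 times of 83 and 150. Log2 fold changes turned sign for TRCN0000000366 with total counts (-0.047) and for TRCN0000039777 with limma-voom (-0.041). When 1 plate was left out, that of TRCN0000000366 ranged from -0.040 to 0.19, that of TRCN0000039777 from -0.19 to 0.65, that of TRCN0000039775 from -0.79 to 0.94, that of TRCN0000039776 from -0.84 to 0.16 and that of TRCN0000040008 from -3.16 to 0.14. The cause was not tested.

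With the replicate number as a block, 74 shRNAs were lower and 127 higher at an unadjusted p under 0.05, and the smallest adjusted p was 0.495. The deviations of DMSO and gefitinib plates of the same number had correlations of 0.13, 0.08 and 0.03 across shRNAs of at least 20 CPM, so that the numbers were not taken to pair the plates, although each plate correlated best with its own number. A fold change of TRCN0000000861 without gefitinib plate 3 could not be had, as no counts were left. For shRNAs under 20 CPM the median standard error of 1.44 on the log2 scale limits what the depth can show.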
